A study of Mus musculus with 12 samples.

Results

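The 7 genes described here encode 3 MEF2 transcription factors (*Mef2a*, *Mef2c* and *Mef2d*) and the 4 class IIa histone deacetylases (*Hdac4*, *Hdac5*, *Hdac7* and *Hdac9*), out of 55450 genes in the count table. They were chosen by name, matched from mouse symbol to Ensembl gene identifier, and each symbol matched a single gene. RNA came from the tibialis anterior (TA), which lifts the foot, of wild-type 129Pas mice before birth (E18.5, in embryonic days), at 2 weeks (wks) and at 7 wks of age, with 4 mice at each age and 1 library per mouse. No allele or treatment set the groups apart, so age was the only factor, and sex and litter are not given in the labels. The series was made to follow splicing while muscle matures after birth, and the deposited values are read counts per gene, which sum all transcript forms of a gene.

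MEF2 proteins are MADS-box transcription factors that bind an A/T-rich motif in the promoters and enhancers of many muscle genes and act together with the myogenic factors. Class IIa histone deacetylases bind MEF2 and repress its target genes. Kinases such as CaMK, protein kinase D and the salt-inducible kinases phosphorylate these deacetylases, which are then bound by 14-3-3 proteins and leave the nucleus, and MEF2 is free to activate transcription. In muscle this circuit is known for its role in fibre type, exercise and the response to loss of the nerve.

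The libraries held 63018968 to 123449246 counts, and the members had between 226 and 96191 counts in a library, so the spread between mice and not the number of reads limited the precision. Levels are given as CPM, the count of a gene set against the whole library after TMM scaling, a method that sets the bulk of genes level between libraries, and per kb of the Ensembl canonical transcript where genes are compared with each other. TMM factors lay between 1.62 and 1.77 at E18.5, between 0.810 and 0.946 at 2 wks, and between 0.667 and 0.699 at 7 wks. Under plain scaling to the total count, the median log2 fold change of all genes was -1.02 for the early interval (E18.5 to 2 wks) and -0.38 for the late interval (2 to 7 wks), against -0.09 and -0.03 under TMM, and changes under that scaling are read against those medians. The summed level of 7 myofibre markers was between 12769 and 22796 CPM at E18.5, between 112425 and 139637 CPM at 2 wks, and between 113236 and 152109 CPM at 7 wks, and no myofibre marker was absent. Summed fibroblast markers were 4630 to 8851 CPM at E18.5 and 819 to 2868 at 7 wks. Satellite cell markers were 49.1 to 71.1 and 10.8 to 19.3 CPM, and cartilage and bone markers 24.3 to 141 and 1.76 to 3.37. Adipocyte markers were uneven at E18.5 (176 to 2635 CPM, against 309 to 413 at 7 wks). Endothelial and smooth muscle markers, given below, were higher at 7 wks. The part of these cells in the members' changes was not tested. The libraries also differed in a tilt over transcript GC content, the median log2 level of genes with over 55.6% GC minus that of genes with under 44.5%, each gene taken relative to its mean. The tilt was -1.86, -0.15, -0.74 and -0.96 in the mice at E18.5, 0.62 to 0.85 at 2 wks, and -0.29, 0.02, 0.77 and 0.38 at 7 wks. The library of mouse 1 at E18.5 thus stood lowest, and a member's value is given without it where a call changed or the value moved by over 1.5 times. The members lay at both ends of the GC scale: the canonical transcripts of *Mef2a*, *Mef2c* and *Hdac9* had 41.9%, 41.9% and 45.0% GC, and those of *Hdac4*, *Mef2d*, *Hdac7* and *Hdac5* had 52.7%, 54.8%, 57.9% and 58.8%. The members' changes are therefore set beside values with each library's GC trend removed, as are those of other genes where this changed a call or turned a sign.

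In GRCm39, *Mef2a* (ENSMUSG00000030557) lies on the minus strand at chr7:66880911-67022606, *Mef2c* (ENSMUSG00000005583) on the plus strand at chr13:83652064-83815555, and *Mef2d* (ENSMUSG00000001419) on the plus strand at chr3:88049185-88079398. *Hdac4* (ENSMUSG00000026313) lies at chr1:91855937-92123421, *Hdac5* (ENSMUSG00000008855) at chr11:102085245-102121072, *Hdac7* (ENSMUSG00000022475) at chr15:97687372-97742383 and *Hdac9* (ENSMUSG00000004698) at chr12:34097579-34967094, all on the minus strand. *Hdac9* was the longest of the genes at 869516 bp, against 30214 bp for *Mef2d*, the shortest. On the opposite strand, *G6pc3* shares 29.99% of the exonic bases of *Hdac5*, *Slc48a1* 24.1% of those of *Hdac7* and *Lysmd4* 6.97% of those of *Mef2a*. The long non-coding RNA genes *1700113A16Rik* and *Gm56779* share 7.09% and 2.36% of those of *Mef2d*. The kit marked strand but the strand setting of the counting is not given in the sources used here, so reads in those stretches could be assigned to either gene or to none. The microRNA gene *Mir8101* lies within *Hdac5* on the same strand.

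RefSeq gives 13 promoter windows for the 7 genes, each running from 250 bases before to 50 bases after a transcription start in GRCm38.p6. The strict MEF2 consensus, which reads the same on both strands, was found in the window of *Mef2a* and in the window of *Hdac5*, that is in 2 of 7 genes, and in 183 of 32851 windows of all genes (0.557%). These promoters are shown because they carry the motif that the MEF2 proteins bind, marked in capitals, and the *Hdac9* promoter is shown beside them because it was the only window of the members without a CG dinucleotide. The capitals in *Hdac9* mark its 2 matches to the E-box (CANNTG, searched on both strands), the motif of the myogenic factors, which overlaps no MEF2 consensus here and was found in 72.3% of all windows. The window of *Hdac5* also holds 2 E-boxes, left in lower case. The *Mef2a* window covers chr7:67372809-67373108 (minus strand), that of *Hdac5* chr11:102230123-102230422 (minus strand) and that of *Hdac9* chr12:34917046-34917345 (minus strand), and all are written 5′ to 3′.
Mef2a promoter: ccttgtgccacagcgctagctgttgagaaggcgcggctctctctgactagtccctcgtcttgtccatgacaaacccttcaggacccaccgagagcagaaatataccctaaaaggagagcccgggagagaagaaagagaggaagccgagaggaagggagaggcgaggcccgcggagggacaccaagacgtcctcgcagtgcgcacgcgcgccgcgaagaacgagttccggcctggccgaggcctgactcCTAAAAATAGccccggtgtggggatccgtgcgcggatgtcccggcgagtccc
Hdac5 promoter: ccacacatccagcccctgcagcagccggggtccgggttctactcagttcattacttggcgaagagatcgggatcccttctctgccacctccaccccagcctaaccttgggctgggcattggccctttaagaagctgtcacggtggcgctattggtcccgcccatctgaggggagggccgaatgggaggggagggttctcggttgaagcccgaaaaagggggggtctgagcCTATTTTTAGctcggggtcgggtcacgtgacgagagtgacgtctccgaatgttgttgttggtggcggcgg
Hdac9 promoter: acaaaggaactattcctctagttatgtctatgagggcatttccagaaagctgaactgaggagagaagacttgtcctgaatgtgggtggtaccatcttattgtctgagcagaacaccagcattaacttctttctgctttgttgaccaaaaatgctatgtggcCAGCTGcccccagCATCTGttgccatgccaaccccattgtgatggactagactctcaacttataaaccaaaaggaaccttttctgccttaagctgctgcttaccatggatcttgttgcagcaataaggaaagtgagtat
The consensus ran from base -2 to base 8 around the start site of *Mef2a*, where the first transcribed base is 1, and from base -20 to base -11 before that of *Hdac5*. The *Mef2a* window held 27 CG dinucleotides, those of *Hdac4* and *Mef2d* 32 and 24, and the 3 windows of *Mef2c* 1, 10 and 4, against a median of 7 over all windows. A share of 5.43% of all windows had 0, as the *Hdac9* window shown did, while its second window, at chr12:34528840-34529139 (minus strand), held 3 and also 3 E-boxes. Of the 9 known MEF2 target genes of muscle with a window, only *Xirp2* held the strict consensus. These matches describe the letters of the windows and were not tested as binding sites.

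All 7 genes were expressed at every age and passed the filter on low counts. Between E18.5 and 2 wks, 5 of the 7 changed (edgeR, adjusted p under 0.05), 4 of them upwards (*Mef2d*, *Hdac4*, *Hdac5* and *Hdac7*) and 1 downwards (*Hdac9*). Among all 19276 genes tested, 65.7% changed in this interval, 31.5% upwards and 34.2% downwards. Between 2 and 7 wks, 4 of the 7 changed, 3 upwards (*Mef2a*, *Mef2c* and *Hdac4*) and 1 downwards (*Hdac7*), against 27.5% of all genes, 13.5% upwards and 13.9% downwards. Across the whole span from E18.5 to 7 wks 6 changed, 5 upwards and *Hdac9* downwards, against 71.4% of all genes, 34.3% upwards and 37.1% downwards. The change to 2 wks differed from the change after 2 wks for 5 of the 7 genes (*Mef2c*, *Mef2d*, *Hdac5*, *Hdac7* and *Hdac9*), a test passed by 38.4% of all genes. The counts to 2 wks and over the whole span are near the background, and 7 genes chosen by name are too few to read the others against it, so what follows is about direction, size and timing. The count after 2 wks was 2 when either mouse 1 or mouse 2 of 2 wks was left out, and was also 2 under scaling to the total count (*Mef2c* higher and *Hdac7* lower). That scaling called *Hdac5* higher and *Mef2a*, *Mef2c* and *Hdac9* lower at 2 wks, and 3 genes for the whole span (*Mef2a*, *Hdac7* and *Hdac9*), all lower. Of all 19276 genes it called 2550 higher and 11923 lower to 2 wks, and 948 higher and 5392 lower after 2 wks. Over the whole span it called 2291 higher and 13297 lower. With the GC trend removed, 5 members were called higher and 1 lower in each interval, and 5 higher and 2 lower over the whole span. Of all genes, that correction called 5279 higher and 7499 lower to 2 wks, and 2586 higher and 3706 lower after it. Over the whole span it called 5909 higher and 8559 lower. Under the same correction 2 members passed the test of the difference between the intervals, *Hdac7* and *Hdac9*. Of all genes, 3423 passed it with a positive difference and 2996 with a negative one under that correction.

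**Figure D1:**
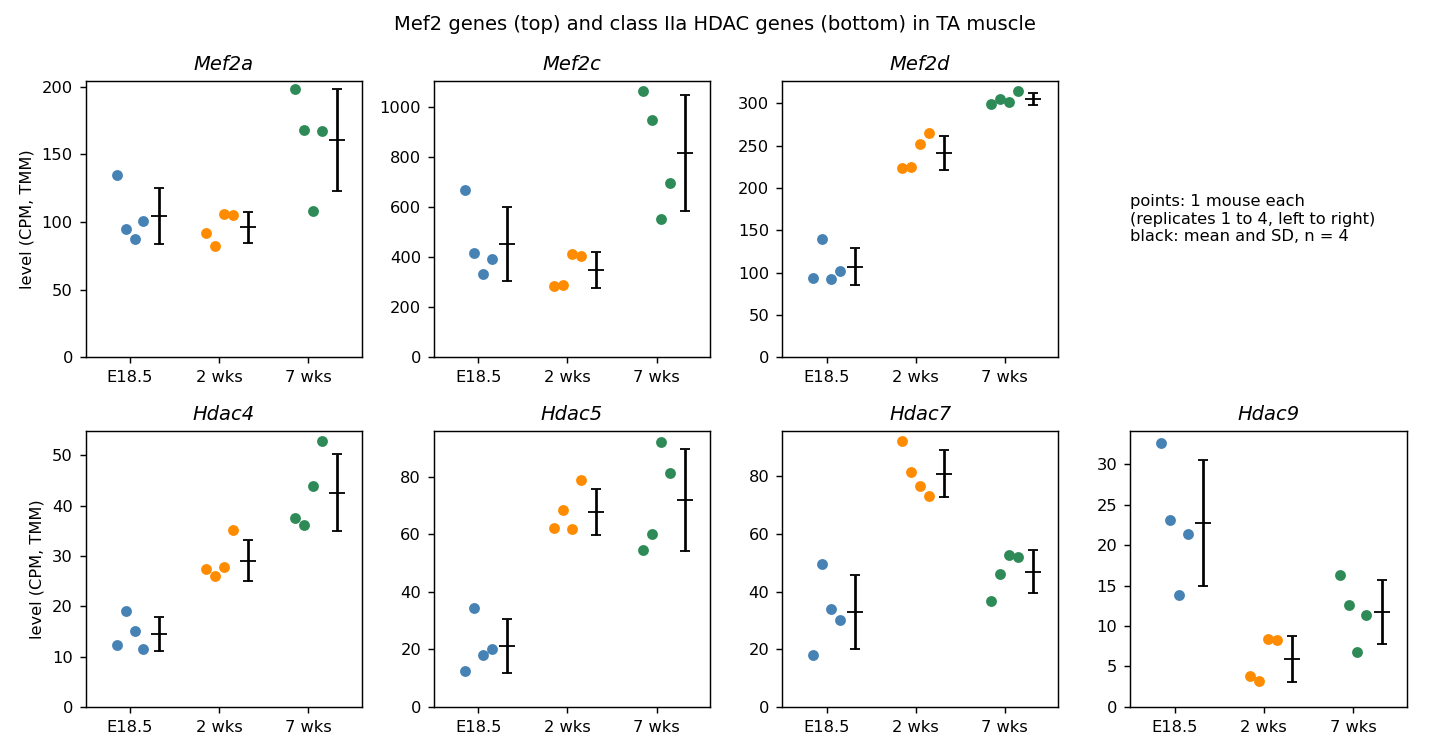
Level in CPM (TMM) of each gene by age, with a point per mouse and the mean with SD (n = 4) in black, on axes that start at 0 and differ between panels. By their means under TMM, *Mef2a* and *Mef2c* are highest at 7 wks, *Mef2d* and *Hdac4* are higher at each later age, *Hdac5* is higher after birth, *Hdac7* peaks at 2 wks and *Hdac9* is lowest there.

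*Mef2c* encodes the MEF2 factor needed for normal sarcomere structure in skeletal muscle and for heart development. Its level was 667, 418, 334 and 392 CPM in the mice at E18.5, 283, 290, 413 and 406 CPM at 2 wks and 1063, 948, 553 and 697 CPM at 7 wks. Every mouse at 7 wks was above every mouse at 2 wks, while the mice at E18.5 and 2 wks overlapped. It rose 2.34-fold from 2 to 7 wks (log2 fold change 1.23 ± 0.26 SE, edgeR adjusted p = 0.0037, n = 4 per age), and no change was called from E18.5 to 2 wks (-0.38 ± 0.25, adjusted p = 0.202), whereas total-count scaling called -1.32 (adjusted p = 0.000197) beside the median of -1.02 for all genes. The early value was -0.13 without mouse 1 of E18.5 and 0.11 with the GC trend removed (adjusted p = 0.613). The intervals differed by a log2 value of -1.61 ± 0.46 (edgeR adjusted p = 0.0142), which missed the threshold without mouse 1 (-1.40, adjusted p = 0.0559) or mouse 2 (-1.44, adjusted p = 0.0528) of 2 wks and with the GC trend removed (-0.83, adjusted p = 0.0633). The rise after 2 wks was called under the GC correction (0.94, adjusted p = 0.0021) and under total-count scaling (0.90, adjusted p = 0.0116).

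*Mef2a* encodes a factor found in most tissues and abundant in muscle and heart. The mice at E18.5 had 135, 95.2, 87.6 and 101 CPM, those at 2 wks 91.7, 82.0, 106 and 105 CPM, and those at 7 wks 198, 168, 108 and 167 CPM. At 7 wks mouse 3 was lowest and only just above the highest mouse at 2 wks, and E18.5 and 2 wks overlapped. *Mef2a* rose 1.67-fold from 2 to 7 wks (0.74 ± 0.19 SE, edgeR adjusted p = 0.0125), and the early log2 fold change was -0.12 ± 0.19 (adjusted p = 0.602). That first value was 0.03 without mouse 1 of E18.5, and 0.36 with the GC trend removed, where it passed the test (adjusted p = 0.0215). Total-count scaling gave -1.05 for the early interval (adjusted p = 0.000168), close to the median of all genes, and 0.40 for the late one, which was no longer called (adjusted p = 0.114). The difference between the intervals was -0.86 ± 0.34 (edgeR adjusted p = 0.0598). It was -0.10 with the GC trend removed (adjusted p = 0.745), and was called under total-count scaling (-1.45, adjusted p = 0.00357) and without mouse 3 of 7 wks (-0.997, adjusted p = 0.0144). The late rise was 0.46 with the GC trend removed (adjusted p = 0.0128). Over the whole span *Mef2a* rose by 0.62 and *Mef2c* by 0.85 under TMM (edgeR adjusted p = 0.0104 and 0.00857) and by 0.82 and 1.05 with the GC trend removed, whereas total-count scaling gave -0.65 and -0.41 beside a median of -1.37 for all genes, and upper-quartile scaling gave 0.37 for *Mef2a* (adjusted p = 0.0944).

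*Mef2d* encodes a factor with a muscle-specific splice form that activates late muscle genes, a form these gene counts do not separate. Its level was 93.3, 139, 92.9 and 102 CPM at E18.5, 224, 225, 251 and 265 CPM at 2 wks and 299, 306, 301 and 315 CPM at 7 wks. The ages did not overlap, and the spread at 7 wks was narrow (305 ± 6.97 CPM, SD, n = 4). *Mef2d* rose 2.26-fold to 2 wks (1.17 ± 0.15 SE, edgeR adjusted p = 1.82e-05) and 2.85-fold over the whole span (1.51 ± 0.15, adjusted p = 1.13e-06), by 0.90 on the log2 scale with the GC trend removed (adjusted p = 2.03e-05). From 2 to 7 wks the log2 fold change was 0.34 ± 0.15 (edgeR adjusted p = 0.109), called without mouse 2 of E18.5 (adjusted p = 0.0442) or with the GC trend removed (0.40, adjusted p = 0.0235), and -0.00 under total-count scaling. The intervals differed by 0.83 ± 0.26 (edgeR adjusted p = 0.0209), which missed the threshold without mouse 3 (0.80, adjusted p = 0.0573) or mouse 4 (0.75, adjusted p = 0.0728) of 2 wks or with no filter (0.79, adjusted p = 0.0605), and was 0.09 with the GC trend removed (adjusted p = 0.773). The early rise was 0.50 with the GC trend removed (adjusted p = 0.00304) and 0.24 under total-count scaling (adjusted p = 0.149).

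*Hdac4* encodes the deacetylase that accumulates in denervated muscle and represses *Dach2* there. The mice had 12.2, 19.0, 15.0 and 11.5 CPM at E18.5, 27.4, 26.0, 27.8 and 35.1 CPM at 2 wks and 37.5, 36.1, 43.9 and 52.8 CPM at 7 wks. Its ages did not overlap, with E18.5 lowest and 7 wks highest. *Hdac4* rose 2.01-fold to 2 wks (1.01 ± 0.18 SE, edgeR adjusted p = 0.000294) and 1.46-fold after it (0.55 ± 0.18, adjusted p = 0.0381), 2.95-fold in all (adjusted p = 5.07e-06). The later rise was not called in 5 of the 12 fits that left out a mouse, namely without mouse 1, 2 or 3 of 2 wks or mouse 3 or 4 of 7 wks (0.43 to 0.54, adjusted p 0.0659 to 0.127), nor under upper-quartile scaling (adjusted p = 0.0803) or with no filter (adjusted p = 0.0637). With the GC trend removed both rises were called (0.65, adjusted p = 0.00173, and 0.53, adjusted p = 0.0152), and under total-count scaling neither was (0.07 and 0.21, adjusted p = 0.744 and 0.402). The intervals did not differ by the test (0.46 ± 0.31, edgeR adjusted p = 0.26), which was 0.12 with the GC trend removed and turned its sign under total-count scaling (-0.14).

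*Hdac5* encodes the deacetylase whose export from the nucleus follows CaMK and protein kinase D signalling in working muscle. At E18.5 the mice had 12.4, 34.4, 18.0 and 20.2 CPM, at 2 wks 62.2, 68.3, 61.8 and 78.9 CPM and at 7 wks 54.3, 60.0, 91.9 and 81.2 CPM. The mice at E18.5 lay below all others, mouse 1 lowest, and the 2 later ages overlapped. *Hdac5* rose 3.19-fold to 2 wks (1.68 ± 0.27 SE, edgeR adjusted p = 0.000101), the steepest rise among the 7 genes under TMM, and changed by 0.08 ± 0.26 afterwards (adjusted p = 0.841). The later value was -0.06 without mouse 3 of 7 wks, -0.27 under total-count scaling and 0.34 with the GC trend removed, where it was called (adjusted p = 0.0418). The rise to 2 wks was 0.55 with the GC trend removed (adjusted p = 0.00101) and 0.74 under total-count scaling (adjusted p = 0.0168). The intervals differed by 1.59 ± 0.44 (edgeR adjusted p = 0.0126), but by 0.22 with the GC trend removed (adjusted p = 0.435) and 1.01 under total-count scaling (adjusted p = 0.0728).

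*Hdac7* encodes the class IIa deacetylase of endothelial cells and thymocytes. Its level was 18.1, 49.5, 33.9 and 30.01 CPM at E18.5, 92.1, 81.5, 76.6 and 73.3 CPM at 2 wks and 36.6, 46.1, 52.8 and 51.9 CPM at 7 wks. The mice at 2 wks lay above all mice of the other ages, which overlapped with each other. *Hdac7* rose 2.46-fold to 2 wks (1.30 ± 0.24 SE, edgeR adjusted p = 0.000326) and then fell by 0.79 ± 0.24 on the log2 scale (adjusted p = 0.025), and the intervals differed by 2.09 ± 0.40 (adjusted p = 0.00156). The difference was called with the GC trend removed (0.85, adjusted p = 0.00453) and under total-count scaling (1.52, adjusted p = 0.00961). The fall was not called without mouse 1 or 2 of 2 wks or mouse 1 or 2 of 7 wks (-0.69 to -0.78, adjusted p 0.0558 to 0.0706), and was called with the GC trend removed (-0.57, adjusted p = 0.00198). The rise was 0.28 with the GC trend removed (adjusted p = 0.0396) and 0.37 under total-count scaling (adjusted p = 0.184). Between E18.5 and 7 wks it had a log2 fold change of 0.51 (edgeR adjusted p = 0.067), and of 0.31 without mouse 1 of E18.5. It was called without mouse 2 of E18.5 (0.78, adjusted p = 0.00441) or mouse 1 of 7 wks (0.62, adjusted p = 0.0399), and was negative with the GC trend removed (-0.29, adjusted p = 0.0278) and under total-count scaling (-0.78, adjusted p = 0.0101).

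*Hdac9* encodes a deacetylase whose truncated form, MITR, lacks the catalytic domain and which is itself activated by MEF2. Its level was 32.7, 23.1, 13.8 and 21.4 CPM at E18.5, 3.79, 3.22, 8.44 and 8.30 CPM at 2 wks and 16.3, 12.7, 6.76 and 11.3 CPM at 7 wks. All mice at 2 wks were below all mice at E18.5, and 7 wks overlapped with both. Under TMM *Hdac9* was the only one of the 7 called lower at 2 wks, whereas total-count scaling also called *Mef2a* and *Mef2c* lower. It fell to 0.261 of its level at E18.5 (-1.94 ± 0.36 SE, edgeR adjusted p = 0.000369), and the fall was also called with the GC trend removed (-1.59, adjusted p = 0.000761) and under total-count scaling (-2.89, adjusted p = 3.92e-06). Afterwards it changed by 0.99 ± 0.36 (edgeR adjusted p = 0.054), and the intervals differed by -2.93 ± 0.65 (adjusted p = 0.00404). The later change was called without mouse 1 or 3 of E18.5, mouse 3 or 4 of 2 wks or mouse 3 of 7 wks (0.99 to 1.21, adjusted p 0.0291 to 0.0482), and by DESeq2 (adjusted p = 0.0278). It was 0.75 with the GC trend removed (adjusted p = 0.0911), and the difference between the intervals was -2.34 (adjusted p = 0.00849). The level at 7 wks was below that at E18.5 (-0.95 ± 0.35, edgeR adjusted p = 0.0265), a call lost without mouse 1 of E18.5 (-0.73, adjusted p = 0.0908), mouse 3 (-0.75, adjusted p = 0.0828) or mouse 4 (-0.93, adjusted p = 0.0579) of 7 wks.

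**Figure D2:**
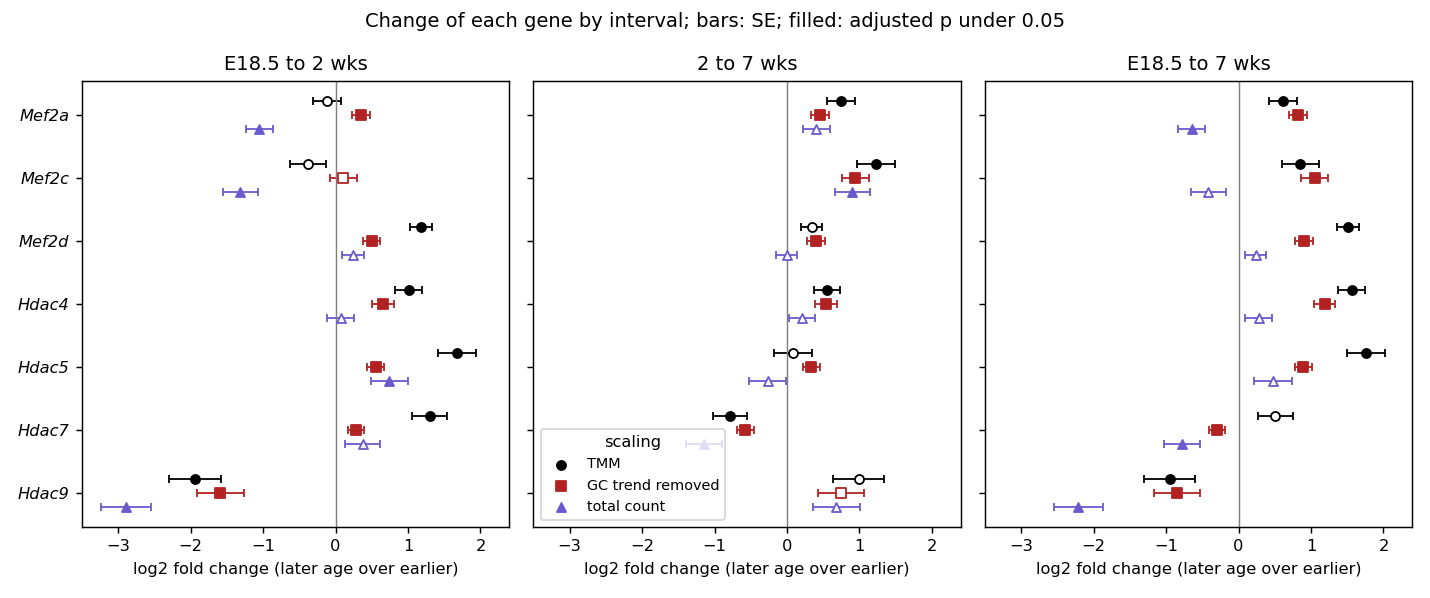
Log2 fold change (x axis) of each gene (y axis) in the 3 comparisons of ages with its SE as a bar, under TMM (circles), with the GC trend removed (squares) and under total-count scaling (triangles), filled where the adjusted p is under 0.05. For *Hdac9* the change to 2 wks lies between -2.89 and -1.59 under all 3, whereas for *Hdac5* it is 1.68 under TMM and 0.55 with the GC trend removed.

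Per kb of transcript, *Mef2c* had the highest level of the 7 genes at every age (63.5 ± 20.6, 48.8 ± 10.01 and 114 ± 32.6 CPM per kb, SD, n = 4). At E18.5 it was followed by *Mef2d* (19.6 ± 4.04) and *Mef2a* (18.9 ± 3.76), whose ranges overlapped, and then by *Hdac7* (4.43 ± 1.75), *Hdac5* (4.08 ± 1.80), *Hdac9* (2.63 ± 0.90) and *Hdac4* (1.67 ± 0.39), each overlapping with the next. All 3 MEF2 genes thus lay above all 4 deacetylase genes at E18.5. At 2 wks *Mef2c* and *Mef2d* (44.3 ± 3.75) overlapped, *Mef2a* (17.4 ± 2.09) overlapped with *Hdac5* (13.0 ± 1.53) and *Hdac5* with *Hdac7* (10.9 ± 1.11), while *Hdac4* (3.36 ± 0.47) and *Hdac9* (0.686 ± 0.33) were separate. At 7 wks *Mef2c* was followed by *Mef2d* (56.0 ± 1.28), *Mef2a* (29.1 ± 6.86), *Hdac5* (13.8 ± 3.40), *Hdac7* (6.31 ± 1.004), *Hdac4* (4.91 ± 0.88) and *Hdac9* (1.36 ± 0.46), and only *Hdac7* and *Hdac4* overlapped. *Hdac9*, whose mean was above that of *Hdac4* at E18.5, was thus the lowest of the 7 at both later ages. With the length of all annotated exons in place of the canonical transcript, *Mef2d* was above *Mef2c* at 2 wks (31.5 ± 2.67 against 20.3 ± 4.16 CPM per kb). *Mef2a* (6.21 ± 0.74) was then below *Hdac7* (8.14 ± 0.83), with no overlap, and its mean was below that of *Hdac5* (7.20 ± 0.85), with overlap. At 7 wks, by that length, *Mef2c* (47.6 ± 13.6) overlapped with *Mef2d* (39.8 ± 0.91). *Mef2a* (10.4 ± 2.44) overlapped with *Hdac5* (7.63 ± 1.88) there, while *Hdac7* and *Hdac4* did not overlap.

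Within each family the shares do not depend on how libraries are scaled to each other. Of the sum of the 3 *Mef2* genes per kb, *Mef2c* took 69.3%, 57.8%, 58.7% and 59.8% in the mice at E18.5, 40.7%, 42.0%, 47.0% and 45.7% at 2 wks and 62.2%, 60.6%, 50.9% and 52.6% at 7 wks. *Mef2c* thus had a lower share in every mouse at 2 wks than in any mouse before or after. *Mef2d* took 12.7%, 25.2%, 21.4% and 20.4% at E18.5, 42.2%, 42.6%, 37.4% and 39.0% at 2 wks and 22.9%, 25.5%, 36.3% and 31.1% at 7 wks. Its share was thus higher in every mouse at 2 wks than in any mouse of the other ages. The share of *Mef2a* was 18.7% ± 1.41, 15.8% ± 0.84 and 14.5% ± 1.48 (SD, n = 4 at each age). *Mef2d* is richer in GC than the other *Mef2* genes, and its share was highest at the age whose libraries all tilted to high GC and lowest in mouse 1 of E18.5, whose library tilted most to low GC. Once the GC trend was removed, the mice had *Mef2d* shares of 26.6% to 28.8% before birth, 30.3% to 35.1% in the 2 wks group and 25.1% to 27.5% in the 7 wks group, and *Mef2c* shares of 53.5% to 57.4%, 46.3% to 52.3% and 55.4% to 61.0%. The mice at 2 wks were thus still apart from the others, by a smaller margin for *Mef2d*. Counted per kb of all annotated exons, the share of *Mef2c* was 55.3%, 34.7% and 47.9% and that of *Mef2d* 30.4%, 54.5% and 41.6% at the 3 ages.

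Among the class IIa deacetylases, *Hdac9* took 37.7%, 14.7%, 14.1% and 21.1% of the sum in the mice at E18.5, 1.57%, 1.35%, 3.69% and 3.19% at 2 wks and 8.74%, 6.26%, 2.55% and 4.37% at 7 wks. Every mouse at E18.5 was above every mouse of the later ages, mouse 1 highest. *Hdac9* is poorer in GC than the other 3, and with the GC trend removed it took 17.3%, 13.7%, 9.69% and 13.3% in the E18.5 mice, from 1.96% to 5.24% in those of 2 wks and from 3.75% to 7.49% in those of 7 wks, so that E18.5 remained above both later ages. At E18.5, 2 wks and 7 wks *Hdac5* took 30.9% ± 5.35, 46.5% ± 3.33 and 51.9% ± 4.19 (SD, n = 4), and *Hdac7* took 34.0% ± 6.79, 39.1% ± 4.74 and 24.0% ± 1.74. *Hdac4*, at 13.2% ± 1.80, 11.96% ± 1.14 and 18.7% ± 1.81, had a higher share in every mouse at 7 wks than in any mouse of the earlier ages. With the GC trend removed *Hdac4* took 11.4%, 14.6% and 19.5%, with no overlap between the ages. *Hdac5* then took 36.5%, 43.7% and 51.1%, and *Hdac7* 38.6%, 38.1% and 23.7%. The higher mean share of *Hdac7* at 2 wks than at E18.5 was not seen under that correction. *Hdac5* was thus the most abundant class IIa transcript at 7 wks, whereas *Hdac5* and *Hdac7* overlapped at E18.5 and 2 wks.

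**Figure D3:**
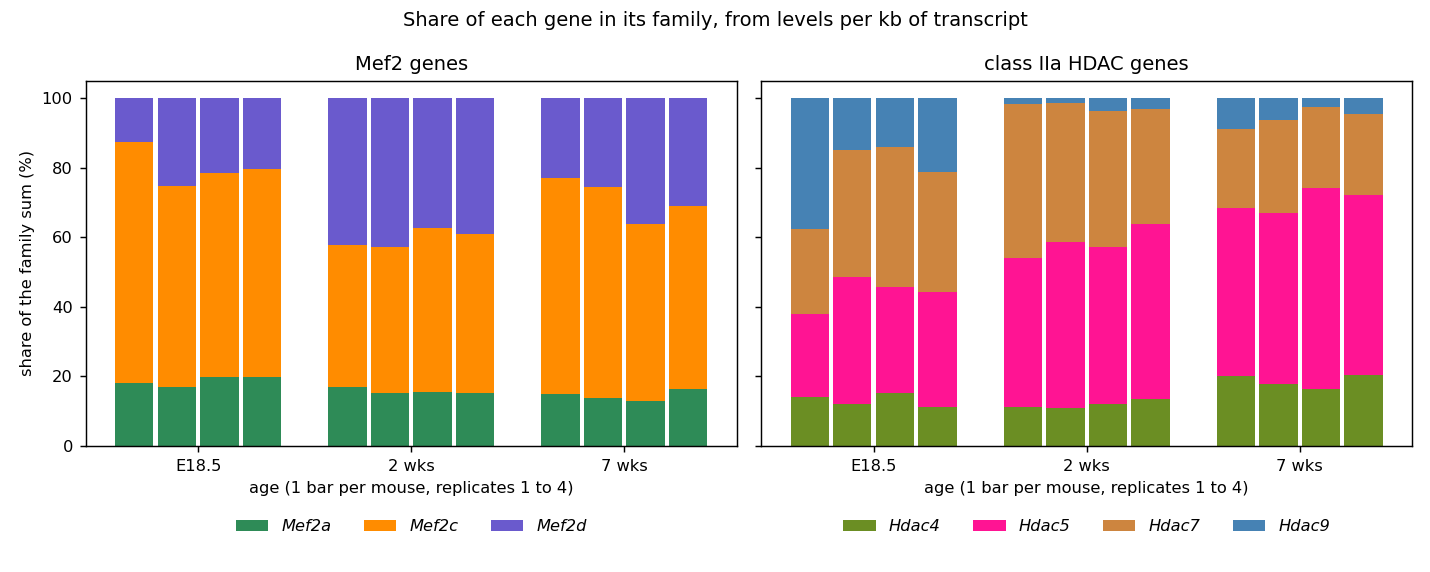
Share of each gene (y axis, % of the family sum of CPM per kb of canonical transcript) in each mouse, with 1 stacked bar per mouse grouped by age, for the *Mef2* genes (left) and the class IIa HDAC genes (right). *Mef2c* takes 40.7% to 47.0% at 2 wks against 50.9% to 69.3% at the other ages, and *Hdac9* takes 14.1% to 37.7% at E18.5 against 1.35% to 8.74% later.

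*Hdac5* and *Hdac7* differ by 0.889 points in GC content, and both are among the GC-rich members. The ratio of *Hdac5* to *Hdac7* per kb was 0.974, 0.989, 0.759 and 0.959 in the mice at E18.5, 0.964, 1.20, 1.15 and 1.54 at 2 wks and 2.12, 1.86, 2.48 and 2.23 at 7 wks. Every mouse at 7 wks was above every mouse of the earlier ages, which overlapped. This pair was picked for its likeness in GC content after the values were seen, so the ratio is given as a description.

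**Figure D4:**
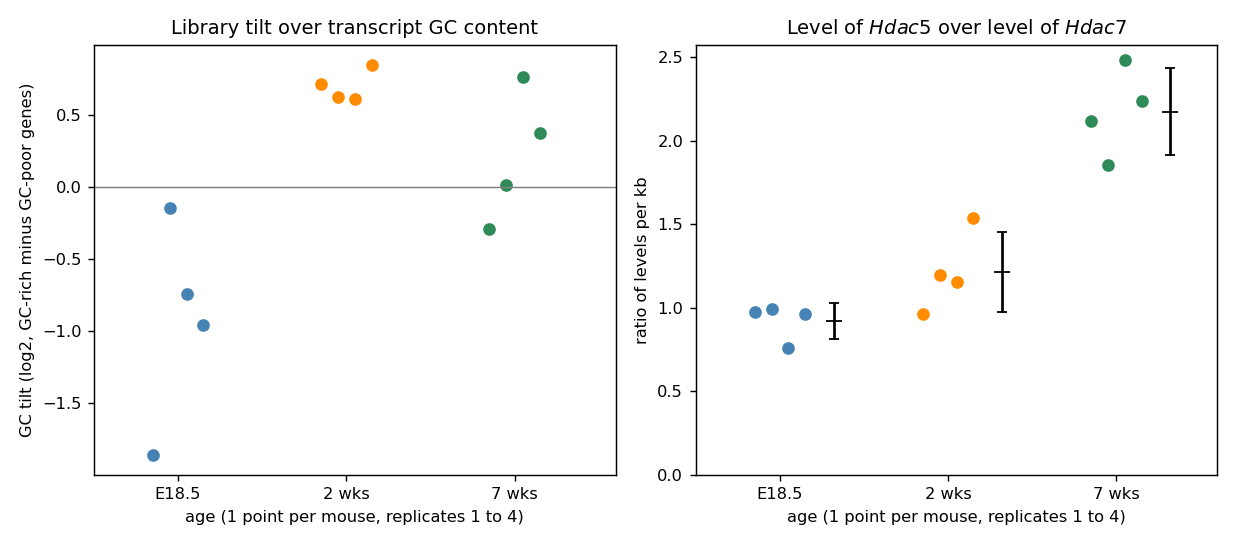
Left, tilt of each library over transcript GC content (log2, genes with over 55.6% GC minus genes with under 44.5%). Right, the level of *Hdac5* over that of *Hdac7* per kb, by age, with a point per mouse and the mean with SD (n = 4) in black. The tilt is below 0 in all libraries of E18.5 and above 0.6 in all of 2 wks, and the ratio lies between 1.86 and 2.48 at 7 wks.

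Endothelial markers moved with *Hdac7* under TMM. Of 8 endothelial markers, 6 rose and 0 fell from E18.5 to 2 wks, and 3 fell and 0 rose from 2 to 7 wks, among them *Cdh5* (1.64 and -0.77 on the log2 scale, edgeR adjusted p = 1.02e-05 and 0.0102), the cadherin of endothelial junctions. Under total-count scaling 4 rose and 1 fell in the early interval, and 5 fell and 0 rose in the late one. With the GC trend removed 7 of the 8 rose and 0 fell in the early interval, and 4 fell and 0 rose in the late one. Of all 19276 genes, that correction called 5279 higher and 7499 lower early, and 2586 higher and 3706 lower late. The summed level of the 8 markers was between 368 and 532 CPM at E18.5, 897 and 1056 CPM at 2 wks, and 599 and 868 CPM at 7 wks, and none was at 0. The level of *Hdac7*, which is not among the 8, was 7.31% ± 2.87, 8.40% ± 1.04 and 6.69% ± 1.60 of the size of that sum (SD, n = 4), with overlapping ranges at the 3 ages. These percentages were not corrected for GC content. With the GC trend removed, the markers had median log2 fold changes of 0.85 (early interval), -0.46 (late interval) and 0.45 (whole span). *Hdac7* had 0.28, -0.57 and -0.29, so its sign over the whole span was opposite to that of their median under this correction. The 2 signs were alike under the other scalings. Over the whole span the median and *Hdac7* had 0.66 and 0.51 under TMM, and -0.62 and -0.78 under total-count scaling. *Mef2c*, also expressed by endothelium, had a level between 72.4% and 181% of the size of the sum at E18.5, between 29.0% and 43.2% at 2 wks, and between 92.2% and 163% at 7 wks. These values were likewise not corrected for GC content. The summed smooth muscle and pericyte markers were 406 to 594, 1067 to 1655 and 889 to 1134 CPM. The part of these cells in the changes of *Hdac7* was not tested, and in whole muscle fewer cells of a type and less RNA per cell cannot be told apart.

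The genes whose profile over the 12 libraries was most like each member were taken by Pearson correlation of log2 CPM among 6686 genes whose log2 CPM averaged 4 or more. They share libraries, age groups and GC tilt, so the values describe likeness only. For *Mef2d* these were *Jph2* (r = 0.996) and *Ryr1* (r = 0.994), which encode a junctophilin and the calcium release channel of the triad, and *Ryr1* had means of 303, 2353 and 3880 CPM at the 3 ages. For *Mef2c* they were *Cert1* (0.980) and *Zbtb18* (0.977), the latter a transcriptional repressor, and for *Mef2a* *Kdm7a* (0.972), a histone demethylase, and *Tmem30a* (0.970). For *Hdac4* they were *Tmcc2* (0.985) and *Dennd1a* (0.983), for *Hdac5* *Ctbp1* (0.994), a corepressor, and *Gtpbp2* (0.993), for *Hdac7* *Cdc42ep1* (0.989) and *Crip2* (0.984), and for *Hdac9* *Pja2* (0.971) and *Ank2* (0.970).

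The other genes of the circuit were taken from lists chosen by function, and counts under total-count scaling follow those under TMM, since more genes are called lower there. *Mef2b*, the remaining family member, had 0.07 ± 0.06 CPM at E18.5 and 0.448 ± 0.18 at 2 wks (SD, n = 4), far under the others. Of the 7 other histone deacetylases tested, 1 rose and 2 fell to 2 wks (median log2 fold change 0.11, against -0.09 for all genes), and 2 rose and 1 fell after it (median -0.01, against -0.03). Total-count scaling called 6 lower and 0 higher in the first interval and 1 lower and 0 higher in the second. *Hdac1*, a class I deacetylase that restrains MyoD in myoblasts, fell in both intervals, by 1.04 ± 0.13 and 0.48 ± 0.13 on the log2 scale (edgeR adjusted p = 1.62e-05 and 0.0159). *Hdac3*, the catalytic partner of the class IIa proteins, had log2 fold changes of 0.25 (adjusted p = 0.106) and 0.40 (adjusted p = 0.0331), and the second was 0.05 under total-count scaling and 0.26 with the GC trend removed (adjusted p = 0.13). The first was 0.30 with the GC trend removed (adjusted p = 0.0464) and -0.68 under total-count scaling (adjusted p = 0.000573).

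Of 14 kinases that phosphorylate class IIa deacetylases, 7 rose and 5 fell to 2 wks (median 0.35), and 2 rose and 2 fell after it (median 0.14), against 4 higher and 8 lower and then 0 higher and 3 lower under total-count scaling. The CaMKII genes *Camk2a*, *Camk2b* and *Camk2g* rose to 2 wks by 2.05, 1.78 and 2.41 on the log2 scale (edgeR adjusted p = 1.01e-06, 8.35e-06 and 3.52e-07), and *Camk2g* rose again by 0.70 (adjusted p = 0.0128), while *Camk2d* had 0.16 (adjusted p = 0.542). With the GC trend removed *Camk2b* had 0.26 to 2 wks (adjusted p = 0.19) and 0.61 after it (adjusted p = 0.0151), and *Camk2d* had 0.50 to 2 wks (adjusted p = 0.0219), against -0.77 under total-count scaling (adjusted p = 0.00404). The protein kinase D genes parted: *Prkd1* and *Prkd3* fell by 1.61 and 1.58 (edgeR adjusted p = 7.14e-05 and 2.26e-06), and *Prkd2* rose by 1.499 and then fell by 0.82 (adjusted p = 0.000237 and 0.0331). The rise of *Prkd2* was 0.49 with the GC trend removed (adjusted p = 0.0162) and 0.57 under total-count scaling (adjusted p = 0.069), and *Prkd3* was called lower after 2 wks with the GC trend removed (-0.27, adjusted p = 0.0383). *Prkaa2*, the AMPK catalytic subunit of muscle, rose in both intervals (1.62 and 0.87, edgeR adjusted p = 0.000122 and 0.0242), and *Prkaa1* fell in the early interval by 0.71 (adjusted p = 0.00432), a value of -0.22 with the GC trend removed. *Sik1*, a salt-inducible kinase gene, had -0.37 to 2 wks (adjusted p = 0.247) and fell after 2 wks by 0.92 (edgeR adjusted p = 0.0241). Its early change was called with the GC trend removed (-0.70, adjusted p = 0.0301) and under total-count scaling (-1.27, adjusted p = 0.00119). Under total-count scaling the late values of *Camk2g* and *Prkaa2* were 0.37 and 0.54 (adjusted p = 0.0945 and 0.106).

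Of the 7 genes for 14-3-3 proteins, 4 fell and 2 rose to 2 wks (median -0.70), and 2 fell and 0 rose after it (median -0.19). With total-count scaling 5 fell and then 4, and 0 rose in either interval. *Ywhaz* fell by 1.31 and then by 0.51 on the log2 scale (edgeR adjusted p = 5.6e-06 and 0.0183), whereas *Ywhag* rose by 0.68 to 2 wks (adjusted p = 0.000921), a value of -0.26 under total-count scaling. Of 14 corepressors and coactivators, 8 rose and 1 fell to 2 wks (median 0.72), and 5 rose and 2 fell after it (median 0.23). With the GC trend removed, 3 rose and 2 fell to 2 wks, and under total-count scaling 1 rose and 6 fell, followed by 2 and 3 after 2 wks. Of all genes, 5279 were called higher and 7499 lower to 2 wks with the GC trend removed. The acetyltransferase gene *Kat2b* rose in both intervals (0.84 and 1.08, edgeR adjusted p = 0.00171 and 0.00146). *Mapk14*, which encodes the p38 kinase that phosphorylates MEF2, rose by 0.75 and 0.85 (adjusted p = 0.00135 and 0.00253), with -0.30 for the early interval when the GC trend was removed. *Mamstr*, the MEF2 coactivator MASTR, rose by 0.70 to 2 wks and then fell by 1.21 (edgeR adjusted p = 0.00136 and 0.000163), and the early value was -0.43 with the GC trend removed. Under total-count scaling the early values of *Kat2b*, *Mapk14* and *Mamstr* were -0.11, -0.20 and -0.22.

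Of 14 known MEF2 target genes of muscle, 12 rose and 0 fell to 2 wks (median 2.26), and 5 rose and 1 fell after it (median 0.50), and under total-count scaling 9 rose and 2 fell to 2 wks, and 2 rose and 1 fell after it. *Xirp2*, which encodes an actin-binding protein of the fibre's attachments and carries the MEF2 consensus in its promoter window, rose by 3.29 ± 0.36 and then by 1.39 ± 0.34 on the log2 scale (edgeR adjusted p = 4.82e-06 and 0.00852). *Slc2a4*, the insulin-responsive glucose transporter, rose by 2.76 and 0.85 (adjusted p = 1.49e-06 and 0.0213), and *Mb*, the gene of myoglobin, by 7.65 and 1.72 (adjusted p = 2.83e-06 and 0.0495). The late rises of both were not called under total-count scaling (0.53 and 1.44, adjusted p = 0.0891 and 0.0642). *Ckm*, muscle creatine kinase, rose by 3.86 to 2 wks (edgeR adjusted p = 1.43e-06) and had 0.08 afterwards (adjusted p = 0.88). *Srpk3*, a splicing kinase gene that depends on MEF2, had 0.11 to 2 wks (adjusted p = 0.576) and fell by 0.58 after it (adjusted p = 0.0188), and its early value was called lower with the GC trend removed (-0.55, adjusted p = 0.00342) and under total-count scaling (-0.82, adjusted p = 0.000703). *Ppargc1a*, the mitochondrial coactivator gene, had 0.10 (adjusted p = 0.778) and then rose by 0.99 (edgeR adjusted p = 0.0287), a rise not called with the GC trend removed (0.70, adjusted p = 0.0594) or under total-count scaling (0.65, adjusted p = 0.109). Under that scaling its early value was -0.83 (adjusted p = 0.0226). The summed myofibre markers, which share *Ckm* and *Des* with this list, also rose to 2 wks, and the part of fibre content in these values was not tested.

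In denervated muscle HDAC4 is known to repress *Dach2*, a repressor of *Myog*, so that myogenin and the fetal receptor genes rise. Of 10 genes of this axis, 4 rose and 4 fell to 2 wks (median -0.47), and 1 rose and 6 fell after it (median -0.67), against 2 and 6 and then 1 and 8 under total-count scaling. *Dach2* rose by 1.17 ± 0.39 and 2.54 ± 0.40 on the log2 scale (edgeR adjusted p = 0.0168 and 0.00058), in the same intervals in which *Hdac4* rose under TMM. Total-count scaling gave 0.22 for its early change (adjusted p = 0.596) and 2.23 for the late one. *Myog* had -0.52 ± 0.28 to 2 wks (adjusted p = 0.122) and fell by 3.01 ± 0.31 after it (edgeR adjusted p = 3.0e-05). Its early change was called with the GC trend removed (-1.18, adjusted p = 0.00188) and under total-count scaling (-1.41, adjusted p = 0.000974). The fetal receptor subunit gene *Chrng* fell by 4.50 and 1.63 (adjusted p = 2.65e-07 and 0.00371), and the adult subunit gene *Chrne* rose by 4.71 and then fell by 0.97 (edgeR adjusted p = 1.53e-08 and 0.00678).

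**Figure D5:**
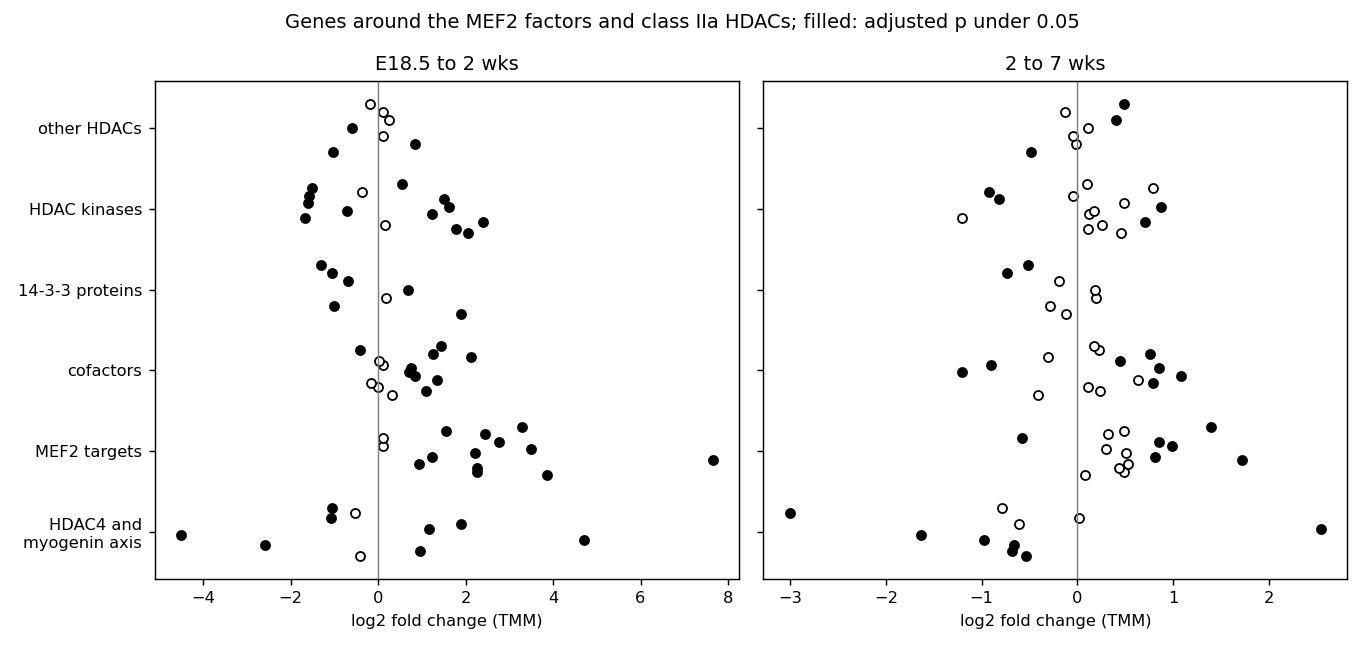
Log2 fold change under TMM (x axis) of each tested gene of 6 lists (rows) from E18.5 to 2 wks (left) and from 2 to 7 wks (right), filled where the adjusted p is under 0.05. Of the 14 MEF2 targets 12 are filled on the right of 0 in the early interval, and of the 14 kinases 7 lie filled above 0 and 5 below.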

How the data were processed

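Polyadenylated RNA of 12 TA muscles was sequenced as stranded paired 100 bp reads. The authors deposited raw read counts per Ensembl gene. The submitters' processing notes name bcl2fastq 2.17.1.14, cutadapt 1.10, STAR 2.5.3a, HTSeq 0.6.1p1 and the build mm10, whereas the study's methods name GRCm39 for the mapping. The table holds no coordinates, so the conflict does not change a count. The annotation release, strand setting and handling of multiply mapped reads are not given in the sources used here. Of the 55450 genes, 51477 were matched to GENCODE vM39 (GRCm39), and the rest took 0.0394% of the counts. The authors' transcript comparison by Cuffdiff was not repeated, since it needs alignments.

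Counts were filtered with filterByExpr (19276 genes left), scaled with TMM and fitted in edgeR 4.0.16 (R 4.3.3, limma 3.58.1), whose quasi-likelihood test was used, in 1 fit of 12 libraries with age as the only term. Benjamini-Hochberg adjustment ran over all genes tested, and a gene was called at an adjusted p under 0.05. The biological coefficient of variation was 0.279. The GC trend was a lowess curve (span 0.3) per library over the GC content of the canonical transcript, known for 98.7% of tested genes, and entered as offsets. On simulated data, 153 of 200 genes changed by a factor of 2 were recovered, with 7 false calls among 18882 genes, for E18.5 against 2 wks at a dispersion of 0.05. That dispersion was below the 0.0777 fitted to the real counts. All simulated libraries shared 1 mean profile apart from the changed genes, far fewer than were called here. These rates therefore check the code and do not measure the error of the real comparisons. Alternatives were total-count and upper-quartile scaling, the replicate number as a block, DESeq2 1.42.0, only the 8 libraries compared, exon-union length, a filter of 10 counts in each library or none, and each library left out. The members and lists were chosen with earlier results of these data known. Named genes were the members, any gene of the lists, and for each member the 2 genes of most similar profile. No library was a copy of another, since each of the 18 replicate pairs had a chi-square of 34.3 or more per degree of freedom. Tables and figures were made with Python 3.11.15, pandas 2.3.3 and matplotlib 3.10.9.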

Additional observations from a re-analysis of the deposited data

How the results depend on the processing

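The number of members called from E18.5 to 2 wks was 5 under TMM and 4 to 6 under all other settings. From 2 to 7 wks it was 4, with 2 under total-count scaling, 2 to 5 when a library was left out and 3 to 6 under the rest. From E18.5 to 7 wks it was 6, with 3 under total-count scaling and 5 to 7 otherwise, and for the difference between the intervals 5, with 2 when the GC trend was removed and 4 to 6 otherwise. Settings that turned the sign of a log2 fold change were the GC trend removed (*Mef2a* 0.36 and *Mef2c* 0.11 from E18.5 to 2 wks, *Hdac7* -0.29 from E18.5 to 7 wks) and total-count scaling (*Mef2d* -0.0039 and *Hdac5* -0.27 from 2 to 7 wks, *Mef2a* -0.65, *Mef2c* -0.41 and *Hdac7* -0.78 from E18.5 to 7 wks, *Hdac4* -0.14 for the difference). *Hdac5* had -0.0196 from 2 to 7 wks under upper-quartile scaling and -0.0569 to 0.197 when a library was left out, with the lowest value without mouse 3 of 7 wks. *Mef2a* had -0.198 to 0.0256 to 2 wks when a library was left out, the highest without mouse 1 of E18.5. Per kb of all annotated exons, 3 of 7 members kept their rank at 2 wks, and the share of *Mef2c* was 55.3%, 34.7% and 47.9%. With the GC trend removed, an alternative for the shares chosen after seeing the data, *Mef2c* took 55.4% and 49.5% at E18.5 and 2 wks and *Hdac9* 3.68% at 2 wks. Of the 12 pairs of libraries with the same number 5 had a correlation of deviations above 0.1 (r -0.283 to 0.514 over all), so the numbers were not taken to pair the mice, and with the number as a block 5, 3, 7 and 5 members were called, *Hdac4* being lost after 2 wks (adjusted p = 0.0531) and *Hdac7* gained for the whole span (adjusted p = 0.0472, edgeR). Of the other genes of the circuit, total-count scaling called 6 and 1 of 7 other deacetylases in the successive intervals in place of 3 and 3, 4 14-3-3 genes in place of 2 and 3 MEF2 targets in place of 6 after 2 wks, and not *Mef2b* (0 calls) for the whole span, and removing the GC trend called 1 other deacetylase and 8 kinases in place of 3 and 4 after 2 wks and 5 cofactors in place of 9 before it. Leaving out mouse 1 of E18.5, an alternative chosen after seeing the data, gave 12 of 14 MEF2 targets and 12 of 14 kinases in the early interval, the counts reported. For the comparisons of 2 ages, counts of all genes called are given above for TMM, total-count scaling and the GC correction. They are not given for the other settings, such as the block or a library left out. The counts of members under those settings show how the calls moved and are not read as a result about the members. The cause of these shifts was not tested. Gene counts cannot separate splice forms.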

Other observations

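A ratio between members within a library does not depend on how libraries are scaled, and besides *Hdac5* and *Hdac7*, 2 pairs lay within 2.5 points of GC content of each other. *Mef2a* and *Mef2c* differ by 0.0133 points, and the level of *Mef2a* per kb was 0.260, 0.294, 0.339 and 0.331 of that of *Mef2c* in the mice at E18.5, 0.419, 0.365, 0.332 and 0.334 at 2 wks and 0.241, 0.229, 0.252 and 0.310 at 7 wks. All mice at 7 wks lay below all mice at 2 wks, while E18.5 overlapped with both. *Mef2d* over *Hdac4*, a pair 2.09 points apart, had a ratio of 11.9 ± 1.77 at E18.5, of 13.3 ± 1.02 at 2 wks and of 11.6 ± 1.78 at 7 wks (SD, n = 4), with overlapping ranges, although each gene rose over the whole span. These pairs were chosen after the values were seen and the ratios were not tested.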
